A study of Mus musculus with 4 samples.

Results

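Levels of 7 genes for secreted vascular growth factors (Vegfa, Vegfb, Vegfc, Pgf, Angpt1, Angpt2 and Apln) were described in lymph node stromal cells of Notch2 cKO and control mice. The genes were taken by symbol, and all 7 of 7 were found among the 32285 genes of the deposited matrices. Cells were sorted as live, CD45-negative and CD31-negative from axillary, brachial and inguinal nodes of female C57BL/6 mice aged 12 weeks, and UMIs (unique molecular identifiers, 1 per captured transcript) were counted from transcript 3′ ends. In Notch2 cKO, Cre recombinase driven by the Ccl19 promoter, active in reticular cells, met floxed Notch2, a receptor of the Notch pathway. Notch2 cKO 1 carried Ccl19-Cre, Notch2 fl/fl and the R26R-EYFP reporter, and Notch2 cKO 2 carried Ccl19-Cre and Notch2 fl/fl. Control 1 carried Ccl19-Cre and R26R-EYFP, and control 2 was labelled Notch2 fl/fl by genotype, with Ccl19-Cre and WT in its title. Libraries numbered 1 were batch 1 (6 pooled mice each, not littermates) and those numbered 2 were batch 2 (3 pooled mice each, littermates), so each group had 2 libraries (n = 2) and each batch 1 library of each group. In batch 1 both libraries thus carried Cre and the reporter, and by label the groups differed in the floxed allele. The effect of the strains in batch 1 cannot be told apart from that of Notch2. In batch 2 no label names the reporter. The labels of control 2 do not settle whether the groups differed there in Cre or in the floxed allele.

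VEGF family ligands act through receptor tyrosine kinases on endothelial cells. Vegfa drives the growth and permeability of blood vessels through Kdr and Flt1, Vegfb and Pgf (placental growth factor) bind Flt1, and Vegfc acts through Flt4 and is the main growth factor of lymphatic vessels. Angpt1 activates the endothelial receptor Tek and stabilises vessels, Angpt2 competes with it in many settings, and Apln encodes apelin, the ligand of the G protein-coupled receptor Aplnr. In lymph nodes, reticular fibroblasts and pericytes surround the high endothelial venules and are known sources of VEGF.

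The libraries held 8491 and 13452 barcodes in Notch2 cKO and 9891 and 18482 in control, with totals of 25644596 and 108144616 UMIs in Notch2 cKO against 21533049 and 119002408 in control. Batch 2 was thus the deeper batch in both groups. Pairs of libraries shared 21 to 57 barcodes, at most 0.546% of a library. Between 84.3% and 98.4% of the cells kept were fibroblast-like by a marker list (Pdgfra, Dcn, Lum, Col1a1, Col1a2, Pdpn). Batch 2 in addition held 541 pericyte-like cells in Notch2 cKO and 958 in control, against 20 and 18 in batch 1. In fibroblast-like cells, the summed level of 7 endothelial markers was 7.41 and 31.8 CPM (UMIs per 1000000 UMIs of the summed cells) in Notch2 cKO and 9.83 and 27.5 CPM in control. Pecam1, at 1.59 and 19.9 CPM in Notch2 cKO and 1.66 and 17.1 CPM in control, and Lyve1, at 4.11 and 8.06 CPM in Notch2 cKO and 3.99 and 6.55 CPM in control, made up most of that sum. Cdh5 and Cldn5 lay at 0.466 CPM or less in all 4 libraries.

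Notch2 itself was at 14.7 and 37.1 CPM in T-zone reticular-like cells of Notch2 cKO and at 42.2 and 57.0 CPM in those of control (log2 fold change -1.10 ± 0.22 SE, adjusted p = 0.0096). The groups did not overlap there, and within each batch Notch2 cKO was the lower. In all fibroblast-like cells Notch2 overlapped, at 19.0 and 39.0 CPM in Notch2 cKO and 38.9 and 58.4 CPM in control. The difference there did not pass by edgeR (-0.85 ± 0.19, adjusted p = 0.0932). Of the other subsets described below, only cells outside the gates passed (-0.76 ± 0.19, adjusted p = 0.0372), with overlap. Marginal (-0.85), Inmt (-0.90), interferon-high (-0.77) and adventitial-like cells (-0.19) did not. Counts from the 3′ end need not lie in the floxed part of the gene, which the labels do not place, so they do not check the deletion.

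Fibroblast-like cells were divided by marker genes, none of them a growth factor described here. T-zone reticular-like cells (Ccl19, Ccl21a, Grem1, Il7, Bst1) are the fibroblasts of the T cell area, and marginal reticular-like cells (Tnfsf11, Madcam1, Cxcl13) those of the outer follicle. Inmt stromal-like cells (Inmt, Cyp2f2, Car3), interferon-high reticular-like cells (Cxcl9, Cxcl10, Gbp2, Iigp1, Ifit3) and adventitial-like cells (Pi16, Dpp4, Cd248 and others) formed 3 further subsets, and the rest were fibroblast-like cells outside these gates. T-zone reticular-like cells numbered 3465 and 5019 in Notch2 cKO and 4562 and 4657 in control. Marginal reticular-like cells numbered 83 and 936 in Notch2 cKO and 73 and 1033 in control, and adventitial-like cells 353 and 136 in Notch2 cKO and 141 and 263 in control. Gate edges were not sharp, since 16.3% to 20.5% of fibroblast-like cells in a library lay between 0.8 and 1.25 times a threshold. Ccl19, a gate marker, was itself lower in Notch2 cKO, at 1343 and 2597 CPM against 5873 and 6307 CPM in control T-zone reticular-like cells. Results there were therefore repeated with a T-zone gate that leaves it out of the marker sum. The fibroblast-like cells as a whole stayed the same, so any part of Ccl19 in choosing those was not removed.

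The 7 genes lie on mouse chromosomes 17 (Vegfa), 19 (Vegfb), 8 (Vegfc and Angpt2), 12 (Pgf), 15 (Angpt1) and X (Apln), all protein-coding. In mm10 (GENCODE M21), Apln (ENSMUSG00000037010) spans chrX:48025146-48034853, Pgf (ENSMUSG00000004791) chr12:85166635-85177790 and Angpt2 (ENSMUSG00000031465) chr8:18690263-18741562, each on the minus strand. RefSeq start-site windows (GRCm38.p6) matched 5 of the 7 genes. The 250 bases before the annotated start are shown for Apln and Pgf, which moved in opposite directions between the groups, and for Vegfa, whose window held a searched motif. Capitals mark TGGGAA or its reverse complement TTCCCA, the core bound by RBPJ, the DNA-binding partner of Notch receptors, and ACGTG or CACGT, the core of the hypoxia response element, both searched on both strands.
Apln, chrX:48034854-48035103, minus strand: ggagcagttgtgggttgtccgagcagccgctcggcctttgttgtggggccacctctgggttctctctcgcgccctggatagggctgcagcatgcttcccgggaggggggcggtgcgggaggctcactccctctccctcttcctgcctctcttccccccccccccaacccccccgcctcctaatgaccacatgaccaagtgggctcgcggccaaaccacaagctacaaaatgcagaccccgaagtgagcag
Pgf, chr12:85177314-85177563, minus strand: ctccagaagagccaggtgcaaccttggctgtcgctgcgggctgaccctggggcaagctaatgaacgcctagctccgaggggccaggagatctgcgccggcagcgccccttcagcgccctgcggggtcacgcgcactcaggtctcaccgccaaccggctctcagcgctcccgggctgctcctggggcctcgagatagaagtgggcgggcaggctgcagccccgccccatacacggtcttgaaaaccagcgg
Vegfa, chr17:46032378-46032627, minus strand: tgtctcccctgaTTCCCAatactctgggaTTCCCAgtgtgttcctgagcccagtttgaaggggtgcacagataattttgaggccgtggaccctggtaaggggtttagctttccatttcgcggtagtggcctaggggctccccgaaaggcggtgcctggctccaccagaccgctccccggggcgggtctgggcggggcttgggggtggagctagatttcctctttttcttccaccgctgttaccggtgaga
The Vegfa window shown held TTCCCA at 2 places, and the second Vegfa window held TGGGAA at 2 places and CACGT at 1. The Apln window, the Pgf window shown, the second Pgf window and the windows of Vegfb and Vegfc held neither motif, which says only that these letters are not in these 250 bases. Of 32851 start-site windows of the same length, 21.6% held TGGGAA or TTCCCA and 16.6% held ACGTG or CACGT.

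Apln was higher in Notch2 cKO in 5 of the 6 fibroblast-like subsets and was the member with the largest difference between the groups in each of them. In all fibroblast-like cells, Apln stood at 24.2 and 21.1 CPM in Notch2 cKO and at 4.82 and 4.28 CPM in control, so that both Notch2 cKO libraries lay above both controls. The fitted difference was 2.26 ± 0.21 on the log2 scale, or 4.80-fold (edgeR quasi-likelihood test with a batch block, adjusted p = 0.00736 over 17680 genes; SE from the test statistic). Pgf and Angpt2 were lower in the same comparison, so 3 of the 7 members were called, beside 1.61% of all genes tested there. Vegfa, Vegfb, Vegfc and Angpt1 did not pass the test. In the same cells, 7 of 7 leukocyte markers were higher in Notch2 cKO in both batches, with a summed level of 8.72 and 13.5 CPM in Notch2 cKO and 4.19 and 8.08 CPM in control. The summed level of 5 pericyte markers was 681 and 864 CPM in Notch2 cKO and 1020 and 1002 CPM in control. Neither sum overlapped between the groups, and their part in the 3 differences was not tested. All p-values between the groups rest on 2 libraries per group, each a pool of mice, and on the batch block. Without the block edgeR called 0 of the 7 members (3 at an unadjusted p under 0.05), and without any 1 library, when the block can no longer be fitted, it also called 0. In both cases Apln stayed higher and Pgf and Angpt2 lower.

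**Figure D1:**
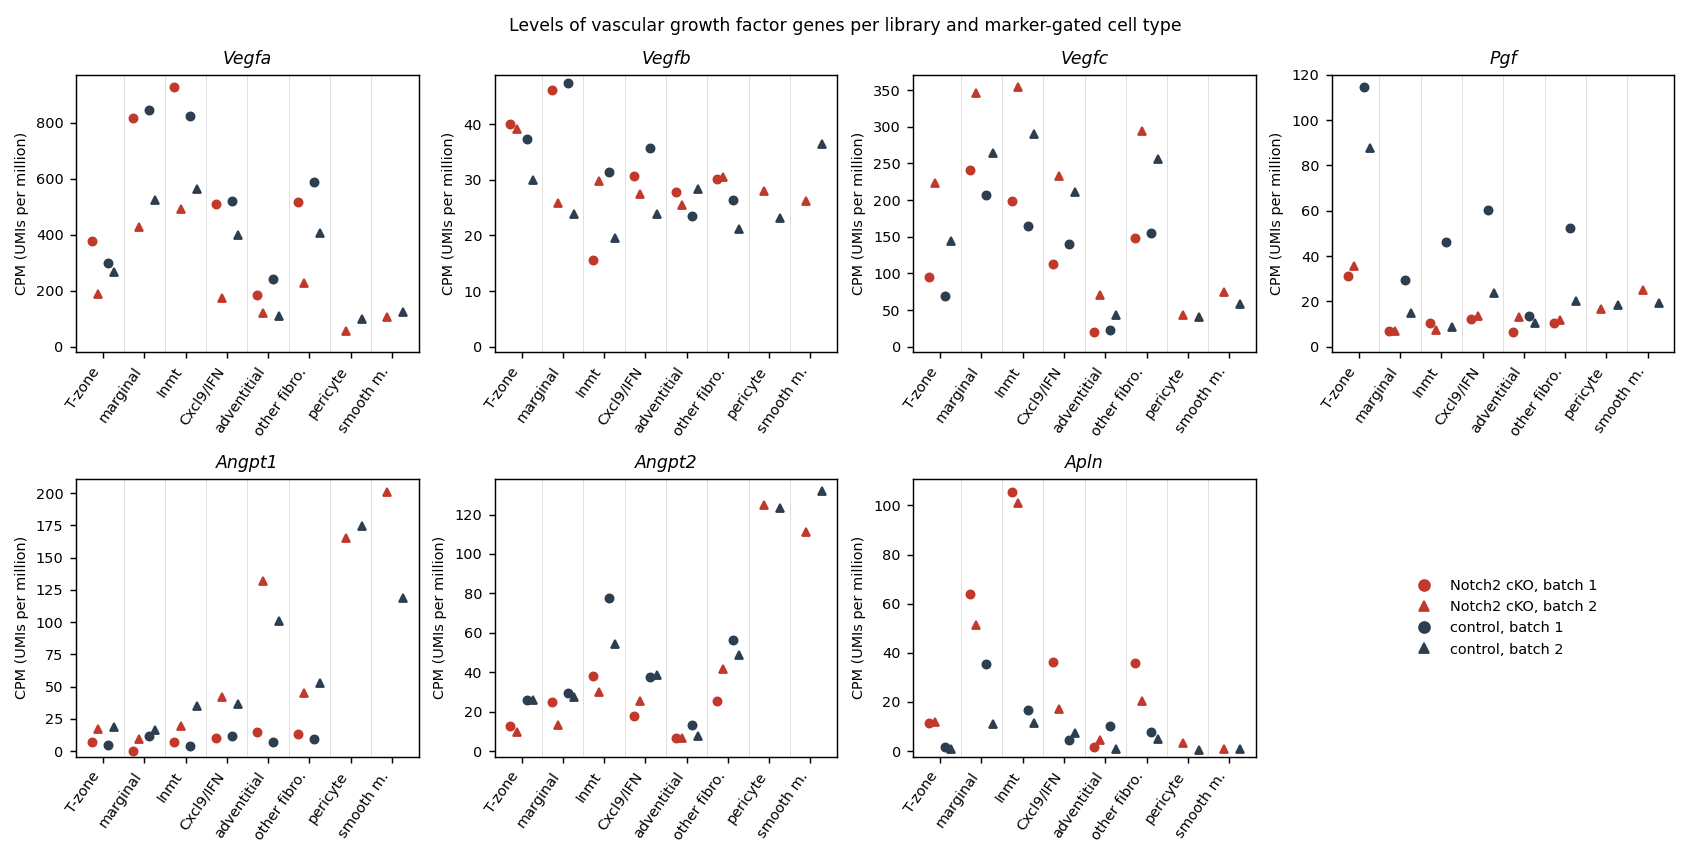
Levels of the 7 growth factor genes in CPM (vertical axes, linear) by library in 6 fibroblast-like subsets and, for batch 2 only, in pericyte-like and smooth muscle-like cells; red marks are Notch2 cKO, dark marks control, circles batch 1 and triangles batch 2. "Other fibro." stands for fibroblast-like cells outside the 5 subset gates. Apln in Inmt stromal-like cells sits at 106 and 101 CPM in Notch2 cKO, above 16.8 and 11.6 CPM in control, whereas Vegfa lies higher in batch 1 than in batch 2 in each fibroblast-like subset.

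In T-zone reticular-like cells, Apln was at 11.4 and 11.9 CPM in Notch2 cKO, against 1.65 and 0.954 CPM in control. The difference was 3.20 ± 0.31 (adjusted p = 5.65e-05), and it was 2.73 within batch 1 and 3.55 within batch 2. The levels rested on 138 and 651 UMIs in Notch2 cKO and on 19 and 40 UMIs in control. With Ccl19 left out of the gate, Apln differed by 3.60 (adjusted p = 4.95e-05). Here 3 of the 7 members were called (Apln, Pgf and Angpt2), beside 5.67% of all genes.

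In Notch2 cKO the highest levels of Apln were seen in Inmt stromal-like cells, at 106 and 101 CPM in Notch2 cKO and 16.8 and 11.6 CPM in control. The difference of 2.84 ± 0.27 passed the test (adjusted p = 1.51e-05), and Apln was the only member called there, beside 0.459% of all genes. In marginal reticular-like cells, Apln was at 63.8 and 51.4 CPM in Notch2 cKO, against 35.5 and 11.004 CPM in control (1.87 ± 0.35, adjusted p = 4.47e-05; 1 of 7 members called, beside 1.39% of all genes). DESeq2 gave Apln no adjusted p there. The value of control 1 there rested on 6 UMIs, and without control 2 the difference was 0.61. Within batches it was 0.84 and 2.18. Interferon-high reticular-like cells had 36.5 and 17.1 CPM of Apln in Notch2 cKO, against 4.36 and 7.28 CPM in control. The difference there was 1.65 ± 0.41 (adjusted p = 0.035), and 2 of 7 members were called, beside 3.06% of all genes. It was 2.49 without Notch2 cKO 2 and 2.48 without control 2, and DESeq2 (adjusted p = 0.378) and the stricter cell filter (adjusted p = 0.0644) did not call it.

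Fibroblast-like cells outside the gates had Apln at 35.7 and 20.2 CPM in Notch2 cKO and at 7.70 and 5.00 CPM in control, with no overlap (2.01 ± 0.22, adjusted p = 9.08e-05; 2 of 7 members called, beside 4.18% of all genes). Adventitial-like cells were the exception. Their Apln levels, 1.86 and 4.44 CPM in Notch2 cKO and 10.0 and 0.844 CPM in control, came from 2 to 4 UMIs a library, overlapped, and fell under the filter on low counts. None of the 5 members tested in adventitial-like cells was called (0 by edgeR, 0 by DESeq2 and 0 at an unadjusted p under 0.05), beside 0.0222% of all genes.

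Whether the difference in Apln itself differed between subsets was tested as an interaction. In T-zone reticular-like cells it was larger than in the remaining fibroblast-like cells by 1.10 ± 0.22 on the log2 scale, which did not pass (adjusted p = 0.0811). No member passed in any of the 5 subsets (0 of 7 by edgeR in each, and 0 by DESeq2, which gave an adjusted p for 3 to 7 of them). The share of all genes called by edgeR was 0.683% in T-zone reticular-like, 1.03% in marginal reticular-like, 1.52% in Inmt stromal-like, 1.54% in interferon-high reticular-like and 0.769% in adventitial-like cells. Under stricter gates 2 members passed in T-zone reticular-like cells and 1 in Inmt stromal-like cells. At an unadjusted p under 0.05, between 0 and 3 members passed by edgeR with the main gates. The share of all genes is not given for either count, so neither can be read against it.

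**Figure D2:**
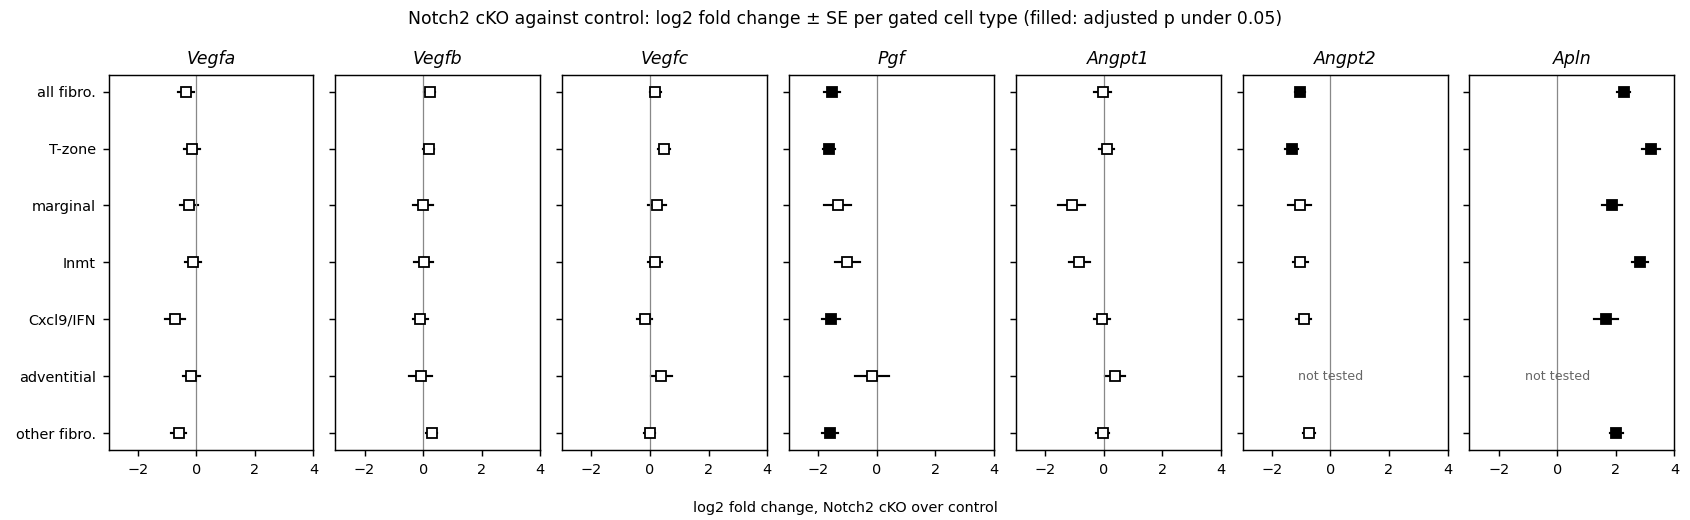
Log2 fold changes of Notch2 cKO over control (horizontal axes) with bars of 1 SE for each gene in all fibroblast-like cells and in each subset (rows). Filled squares passed an adjusted p of 0.05. Apln is filled in 6 of 6 rows in which it was tested, with values between 1.65 and 3.20, and Pgf in 4 rows, with values between -1.65 and -1.53.

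In Inmt stromal-like cells more cells held an Apln UMI in Notch2 cKO, also at equal depth. After every cell had been thinned to 1000 UMIs, 7.24% and 8.96% of Inmt stromal-like cells held an Apln UMI in Notch2 cKO, against 2.38% and 1.31% in control. The exact 95% binomial intervals, which cover counting error only, ran from 4.19% to 11.5% and from 6.72% to 11.6% in Notch2 cKO and from 1.24% to 4.12% and from 0.628% to 2.39% in control. Before thinning the shares were 16.7% and 28.9% in Notch2 cKO and 2.98% and 4.96% in control. In T-zone reticular-like cells the thinned shares were 0.952% and 1.18% in Notch2 cKO and 0.153% and 0.0644% in control. Pericyte-like cells of batch 2 gave 0.739% in Notch2 cKO and 0% in control (4 of 541 cells in Notch2 cKO, and 0 of 958 cells in control, which by a floor of 3 counts allows up to 0.313%). Their median depths were 3887 UMIs in Notch2 cKO and 3294.5 in control, against 10426 and 8174 UMIs in T-zone reticular-like cells of the same libraries. The interval of the pericyte-like share in Notch2 cKO, 0.202% to 1.88%, holds both T-zone shares of Notch2 cKO. Those shares were therefore not read as expression in T-zone reticular-like cells. Whether pericyte-like cells themselves carry Apln was not tested, so their share is not a measured background. Leukocyte-like cells of batch 2 held 0 Apln UMIs in Notch2 cKO and 1 in control. By level, T-zone reticular-like cells of batch 2 had 11.9 CPM of Apln in Notch2 cKO and 0.954 CPM in control, against 3.11 and 0.293 CPM in pericyte-like cells of the same libraries. The shares in Inmt stromal-like cells of Notch2 cKO lay above the upper bound of the pericyte-like interval. In batch 1 the thinned shares were 7.23% (2.7% to 15.1%) in Notch2 cKO and 4.11% (0.856% to 11.5%) in control in marginal reticular-like cells, and 0% (0 of 353 cells, which allows up to 0.85%) in Notch2 cKO and 1.42% in control in adventitial-like cells.

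**Figure D3:**
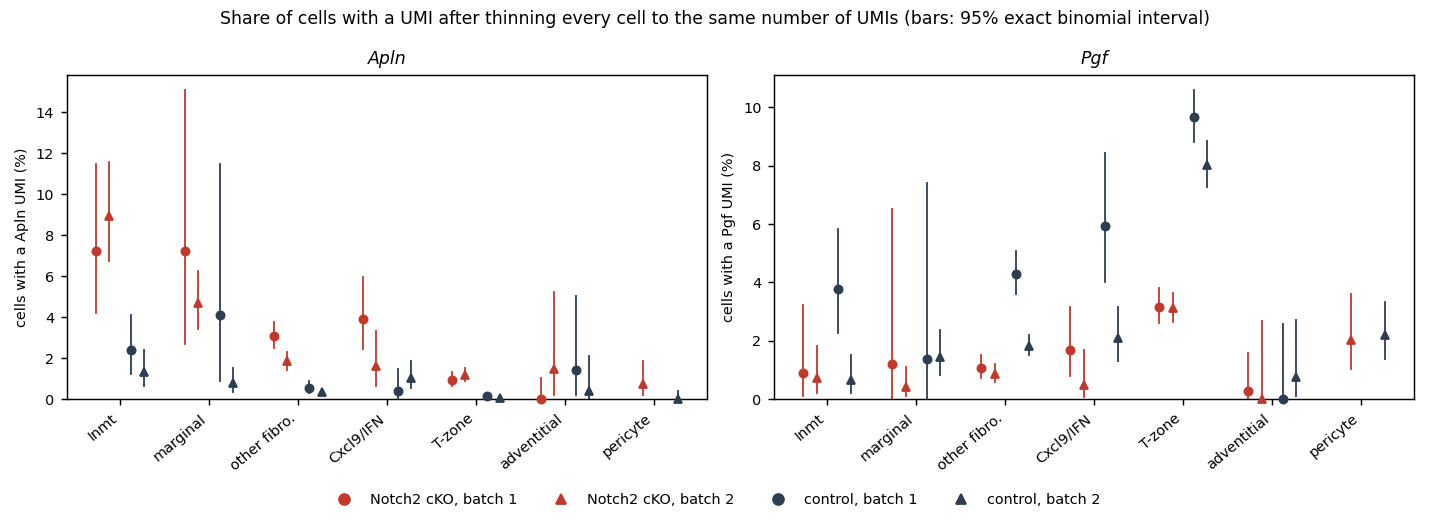
Share of cells (%) with an Apln UMI (left) and with a Pgf UMI (right) after each cell was thinned to 1000 UMIs, by subset and library, with exact 95% binomial intervals; pericyte-like cells are shown for batch 2 only. For Apln, Inmt stromal-like cells of Notch2 cKO lie at 7.24% and 8.96%, and for Pgf the T-zone reticular-like cells of control lie at 9.67% and 8.03%.

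Pgf was lower in Notch2 cKO and was highest in T-zone reticular-like cells in both groups. In those cells Pgf was at 31.1 and 35.5 CPM in Notch2 cKO and at 115 and 87.8 CPM in control, without overlap (-1.65 ± 0.21, adjusted p = 0.000378). The share of T-zone reticular-like cells with a Pgf UMI at 1000 UMIs was 3.17% and 3.11% in Notch2 cKO and 9.67% and 8.03% in control, and 9.32% and 24% in Notch2 cKO against 22.6% and 44.3% in control before thinning. Pericyte-like cells of batch 2 gave thinned shares of 2.03% in Notch2 cKO and 2.19% in control. The T-zone shares of Notch2 cKO lay near these and, as for Apln, were not read as expression by themselves. Whether pericyte-like cells themselves carry Pgf was not tested, so their shares are not a measured background. Leukocyte-like cells of batch 2 gave lower thinned shares, 0.478% in Notch2 cKO and 0.379% in control (3.61 and 2.35 CPM). By level, pericyte-like cells of batch 2 had 16.9 CPM of Pgf in Notch2 cKO and 18.4 CPM in control. In all fibroblast-like cells the levels of Pgf were 20.5 and 24.7 CPM in Notch2 cKO and 86.6 and 46.2 CPM in control (-1.53 ± 0.27, adjusted p = 0.0434), a difference of -2.08 within batch 1 and -0.90 within batch 2. This call in all fibroblast-like cells was lost without TMM scaling (adjusted p = 0.13), with the stricter cell filter (0.0909) and without the cells of highest UMI totals (0.0912), while the T-zone call was kept in each.

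Outside the T zone, Pgf was at 12.2 and 13.4 CPM in interferon-high reticular-like cells of Notch2 cKO and at 60.2 and 23.7 CPM in those of control (-1.57 ± 0.32, adjusted p = 0.0105). Fibroblast-like cells outside the gates had 10.3 and 11.8 CPM in Notch2 cKO and 52.4 and 20.3 CPM in control (-1.59 ± 0.28, adjusted p = 0.00402). Control 1 was the higher control in both, and without it the differences were -1.01 and -0.91. Without control 2 they were -2.36 and -2.41. The call in interferon-high cells was lost with DESeq2 (adjusted p = 0.209), and that outside the gates without TMM scaling (0.0607) and without the cells of highest UMI totals (0.0985). In Inmt stromal-like cells control 2, at 8.56 CPM, lay between the Notch2 cKO libraries at 10.4 and 7.57 CPM, while control 1 was at 46.1 CPM. Marginal reticular-like and adventitial-like cells held 2 to 130 Pgf UMIs a library, and no difference was called in either.

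Angpt2, the ligand that competes with Angpt1 for Tek, was lower in Notch2 cKO. T-zone reticular-like cells had 12.5 and 9.63 CPM in Notch2 cKO, against 26.1 and 25.9 CPM in control. The difference was -1.32 ± 0.22 (adjusted p = 0.00278), with -1.06 within batch 1 and -1.42 within batch 2. In all fibroblast-like cells Angpt2 was at 18.0 and 19.6 CPM in Notch2 cKO and at 38.6 and 36.5 CPM in control (-1.04 ± 0.18, adjusted p = 0.0418), a call lost in the same 3 settings as that of Pgf (adjusted p 0.0841 to 0.0913). The 2 Notch2 cKO libraries lay below the 2 controls in all 6 subsets, but outside the T zone no difference was called. In adventitial-like cells (4 to 18 UMIs a library) Angpt2 fell under the filter on low counts and was not tested. Marginal reticular-like cells of batch 1 held 7 Angpt2 UMIs in Notch2 cKO and 5 in control. How many of all genes lay without overlap was not counted, so this order alone does not set Angpt2 apart. By the mean of the 4 libraries Inmt stromal-like cells were the subset richest in Angpt2. In Notch2 cKO 2, however, cells outside the gates had more, at 41.8 against 29.8 CPM. Inmt stromal-like cells had 38.1 and 29.8 CPM in Notch2 cKO against 77.5 and 54.2 CPM in control (-1.04 ± 0.25, adjusted p = 0.0979). Without the cells of highest UMI totals that difference was called (-1.14, adjusted p = 0.00505).

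Of the pericyte markers, Rgs5 separated the groups in T-zone reticular-like cells, as Angpt2 did. The summed level of the 5 pericyte markers (Rgs5, Kcnj8, Abcc9, Higd1b, Cspg4) was 742 and 843 CPM in Notch2 cKO, against 1082 and 1095 CPM in control, and Rgs5, the most abundant of them there, was at 464 and 480 CPM against 808 and 729 CPM. Abcc9, Kcnj8, Cspg4 and Higd1b overlapped between the groups, and Higd1b lay at 0 in both libraries of batch 1. Their sum was also lower in Notch2 cKO without overlap in interferon-high reticular-like cells (662 and 667 CPM in Notch2 cKO, 915 and 957 CPM in control), in cells outside the gates (634 and 803 CPM in Notch2 cKO, 953 and 937 CPM in control) and in adventitial-like cells (128 and 177 CPM in Notch2 cKO, 331 and 211 CPM in control). It overlapped in marginal reticular-like cells. In Inmt stromal-like cells the same sum was 919 and 1152 CPM in Notch2 cKO and 997 and 989 CPM in control, overlapping, and Angpt2 was lower there in both batches (-1.01 and -0.85) without passing the test. The part of these markers in the differences in Angpt2 was not tested.

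Vegfa, the main blood vessel factor, gave no called difference between the groups in any comparison by edgeR. All fibroblast-like cells had 447 and 230 CPM of Vegfa in Notch2 cKO and 432 and 362 CPM in control (-0.35 ± 0.27, adjusted p = 0.795), and the groups overlapped. The batches pointed in opposite directions, with 0.05 within batch 1 and -0.65 within batch 2. In T-zone reticular-like cells the levels were 379 and 190 CPM in Notch2 cKO, against 299 and 269 CPM in control (-0.14 ± 0.28, adjusted p = 0.911), and the sign again turned between batches, at 0.34 and -0.51. Within batch 2 Vegfa was the lower in Notch2 cKO in 5 of the 6 subsets, and in adventitial-like cells it was 121 CPM in Notch2 cKO and 110 CPM in control.

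Vegfb, the ligand of Flt1, Vegfc and Angpt1 gave no called difference either. Vegfb was at 34.8 CPM in both Notch2 cKO libraries and at 33.4 and 25.1 CPM in control in all fibroblast-like cells (0.22 ± 0.19, adjusted p = 0.826), so the groups did not overlap there. Vegfc, the lymphatic factor, was at 117 and 256 CPM in Notch2 cKO and at 106 and 206 CPM in control (0.18 ± 0.20, adjusted p = 0.889), with overlap. Its T-zone levels, 95.4 and 223 CPM in Notch2 cKO and 69.7 and 144 CPM in control, were higher in Notch2 cKO within both batches by 0.45 and 0.64 without passing (0.49 ± 0.21, adjusted p = 0.284). Angpt1, the activating ligand of Tek, was at 9.69 and 25.7 CPM in Notch2 cKO and at 6.52 and 35.3 CPM in control in all fibroblast-like cells (-0.03 ± 0.29, adjusted p = 0.991), again with overlap.

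Vegfc and Angpt1 differed between batches more than between groups. On log2(CPM + 1), batch 2 exceeded batch 1 by 1.79 for Angpt1 and by 1.04 for Vegfc, and the difference was -0.60 for Vegfa. These 2 genes are the longest of the 7, with Angpt1 spanning 252 kb (chr15:42424723-42676977) and Vegfc 109 kb (chr8:54077606-54187096), while Apln spans 9.71 kb. Over all genes of at least 5 CPM, the median difference between batches was 1.74 for 616 genes over 200 kb, 0.70 for 980 genes of 100 to 200 kb and -0.17 for 2445 genes up to 10 kb. Headers of the files give version 5.0.1 of Cell Ranger for batch 1 and version 7.1.0 for batch 2. The part of the version in the batch difference was not tested. Each batch held both groups, so the term for batch took up this difference in the comparison of the groups, while levels of Angpt1 and Vegfc read across batches carry it.

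**Figure D4:**
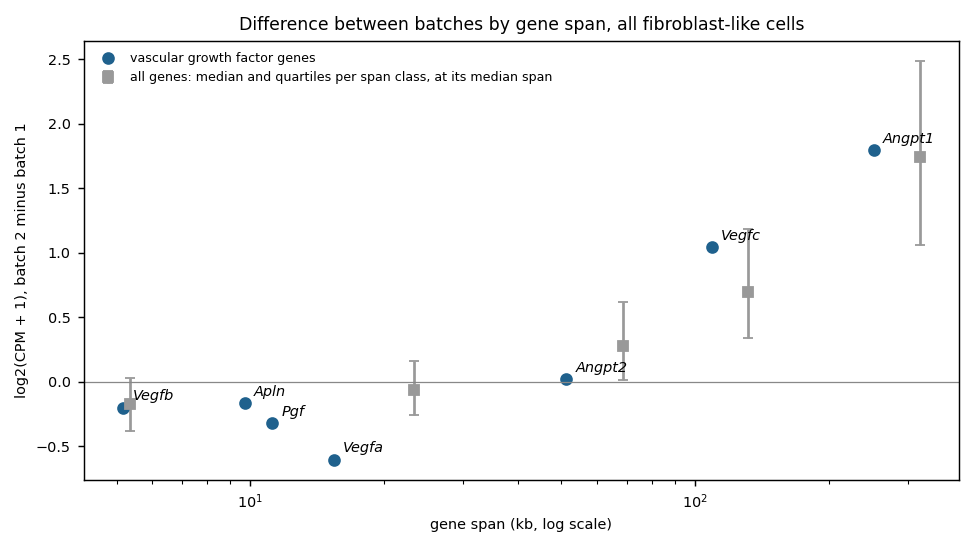
Difference between batches in log2(CPM + 1) in all fibroblast-like cells (vertical axis) against gene span in kb (horizontal, log scale); blue points are the 7 growth factor genes, grey squares the median of all genes in 5 span classes with bars from the first to the third quartile. Angpt1 at 1.79 and Vegfc at 1.04 lie among other long genes, and Apln at -0.17 lies near 0.

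The subsets differed in which factors they carried, within libraries. Against the remaining fibroblast-like cells of the same library, T-zone reticular-like cells were richer in Pgf (1.77 ± 0.18, adjusted p = 0.000749) and Vegfb (0.49 ± 0.06, adjusted p = 0.00115). They were poorer in Apln (-1.85 ± 0.21), Angpt2 (-1.07 ± 0.15), Angpt1 (-1.01 ± 0.09), Vegfc (-0.65 ± 0.13) and Vegfa (-0.61 ± 0.11). All 7 members were called, beside 30.8% of all genes. The differences between subsets were thus common among genes, and so a call alone does not set these 7 apart.

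Marginal reticular-like and Inmt stromal-like cells were the subsets richest in Vegfa and Apln. Vegfa in Inmt stromal-like cells was at 930 and 491 CPM in Notch2 cKO and 826 and 565 CPM in control, higher than in the remaining fibroblast-like cells (1.01 ± 0.09, adjusted p = 6.44e-07). In marginal reticular-like cells Vegfa was at 819 and 427 CPM in Notch2 cKO and 846 and 524 CPM in control (0.78 ± 0.09, adjusted p = 3.09e-06). Vegfc was likewise higher in both, by 0.64 ± 0.08 and 0.54 ± 0.10, and Apln by 2.20 ± 0.15 and 1.52 ± 0.13. They differed in Angpt2, which was higher in Inmt stromal-like cells (0.82 ± 0.11) and lower in marginal reticular-like cells (-0.52 ± 0.12). The call of Angpt2 in marginal reticular-like cells was lost with DESeq2 and without Notch2 cKO 2 or control 2 (adjusted p 0.231, 0.313 and 0.106). Pgf was lower in both, and Angpt1 in marginal reticular-like cells. In all, 5 of 7 members were called in Inmt stromal-like cells, beside 22.5% of all genes, and 6 of 7 in marginal reticular-like cells, beside 18.8%.

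Interferon-high reticular-like cells differed from the remaining fibroblast-like cells in Pgf (-0.81 ± 0.09, adjusted p = 3.62e-05), and no other member was called (1 of 7, beside 8.28% of all genes). Adventitial-like cells, fibroblasts of the vessel's outer coat, were the only subset in which Angpt1 was called higher (1.63 ± 0.24, adjusted p = 4.89e-05, and 0.81 with stricter gates), at 14.9 and 132 CPM in Notch2 cKO and 6.69 and 101 CPM in control. In all fibroblast-like cells Angpt1 was at 9.69 and 25.7 CPM in Notch2 cKO and 6.52 and 35.3 CPM in control. The adventitial-like levels of batch 1 rested on 16 UMIs in Notch2 cKO and 2 in control. Adventitial-like cells were lower in Vegfc (-2.22 ± 0.16), Apln (-2.35 ± 0.46), Angpt2 (-1.92 ± 0.23), Pgf (-1.90 ± 0.24) and Vegfa (-1.27 ± 0.16), with 6 of 7 members called, beside 32% of all genes.

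Ranked by the mean of the 4 libraries, Vegfa ran from Inmt stromal-like (703 CPM) through marginal reticular-like (654 CPM), ungated fibroblast-like (435 CPM), interferon-high reticular-like (401 CPM) and T-zone reticular-like (284 CPM) to adventitial-like cells (165 CPM). Neighbours in this order overlapped in range over libraries, and 3 or 4 of the 4 libraries kept each step. Vegfc began with marginal reticular-like (265 ± 59.0 CPM, SD over 4 libraries) and Inmt stromal-like cells (252 ± 86.5 CPM), whose order held in 2 of 4 libraries. It ended with adventitial-like cells (39.7 ± 23.3 CPM), which lay below T-zone reticular-like cells (133 ± 67.5 CPM) in 4 of 4 libraries. Pgf followed T-zone reticular-like cells (67.3 ± 40.8 CPM) with interferon-high reticular-like cells (27.4 ± 22.5 CPM), lower in 4 of 4 libraries. Apln ran from Inmt stromal-like cells (58.8 ± 51.6 CPM) over marginal reticular-like cells (40.4 ± 22.8 CPM), lower in 3 of 4, to adventitial-like cells (4.29 ± 4.11 CPM), an SD that holds the difference between the groups. In control the means of the first step ran the other way, at 14.2 CPM in Inmt stromal-like and 23.2 CPM in marginal reticular-like cells. That came from control 1, at 16.8 and 35.5 CPM, the latter from 6 UMIs. Control 2 kept the order, at 11.6 and 11.004 CPM. Angpt2 ran from Inmt stromal-like cells (49.9 ± 21.05 CPM) to adventitial-like cells (8.53 ± 3.26 CPM), and Angpt1 from adventitial-like (63.6 ± 62.4 CPM) to marginal reticular-like cells (9.33 ± 6.93 CPM). Vegfb varied least over the subsets, between 24.1 CPM in Inmt stromal-like and 36.6 CPM in T-zone reticular-like cells, with neighbouring subsets within their spread.

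In batch 2, Angpt1 and Angpt2 were higher in mural cells, the pericytes and smooth muscle cells that wrap vessels, than in fibroblast-like cells as a whole. Batch 1 held too few mural cells, so this comparison has 1 library per group and uses the 2 libraries as blocks. Angpt1 in pericyte-like cells was at 165 CPM in Notch2 cKO and 175 CPM in control, against 25.7 and 35.3 CPM in the fibroblast-like cells of those libraries (2.27 ± 0.13, adjusted p = 4.24e-10). Angpt2 in pericyte-like cells was at 125 CPM in Notch2 cKO and 123 CPM in control, against 19.6 and 36.5 CPM in fibroblast-like cells (1.97 ± 0.17, adjusted p = 5.12e-08). The other 5 members were lower in pericyte-like cells, with Vegfc at -2.67 ± 0.14 and Vegfa at -2.16 ± 0.13 (-3.85 and -2.85 with stricter gates). All 7 were called, beside 30.1% of all genes, and Vegfb (-0.44, adjusted p = 0.0394) was not called in 6 of 7 alternatives. With 1 library per group, no test between the groups was made in pericyte-like cells.

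Smooth muscle-like cells carried Angpt1 at 201 CPM in Notch2 cKO and 118 CPM in control, and Angpt2 at 111 and 132 CPM. Between the mural types, 2 of 6 members tested were called, beside 13.5% of all genes. Pericyte-like cells had less Vegfa (-0.60 ± 0.16, adjusted p = 0.0107) and less Vegfc (-0.67 ± 0.18, adjusted p = 0.00969) than smooth muscle-like cells. Neither was called with DESeq2, with stricter gates or without the library block, where the adjusted p lay between 0.113 and 0.726. Follicular dendritic-like cells of batch 2 (64 cells in Notch2 cKO and 126 in control) had Vegfa at 174 CPM in Notch2 cKO and 234 CPM in control, with 0 and 1 Apln UMIs.

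The receptors of these ligands were mostly low in fibroblast-like cells, in which the endothelial receptors Kdr, Tie1 and Aplnr averaged 0.145, 0.037 and 0.104 CPM. The 2 receptors of highest level were the co-receptors Nrp1 and Nrp2, which bind VEGFs. In T-zone reticular-like cells Nrp1 was at 283 and 349 CPM in Notch2 cKO and at 579 and 549 CPM in control, without overlap, and missed the threshold (-0.90 ± 0.26, adjusted p = 0.0695). Nrp2 was at 73.3 and 90.9 CPM in Notch2 cKO and at 47.4 and 73.8 CPM in control (0.40 ± 0.21, adjusted p = 0.4). Tek, the angiopoietin receptor, rose in T-zone reticular-like cells, with 13.8 and 17.4 CPM in Notch2 cKO and 2.79 and 6.46 CPM in control (1.71 ± 0.28, adjusted p = 0.00236). It also rose in fibroblast-like cells outside the gates, as did Flt4, the receptor of Vegfc, at 2.52 and 3.82 CPM in Notch2 cKO and 0.154 and 1.19 CPM in control (1.94 ± 0.51, adjusted p = 0.0492). Outside the gates DESeq2 called 0 of the 5 receptors tested. Of the 8 receptors, 5 were tested in T-zone reticular-like cells, with 1 higher and 0 lower, beside 5.67% of all genes called, and a median difference of 0.40, beside 0.02 for all genes.

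**Figure D5:**
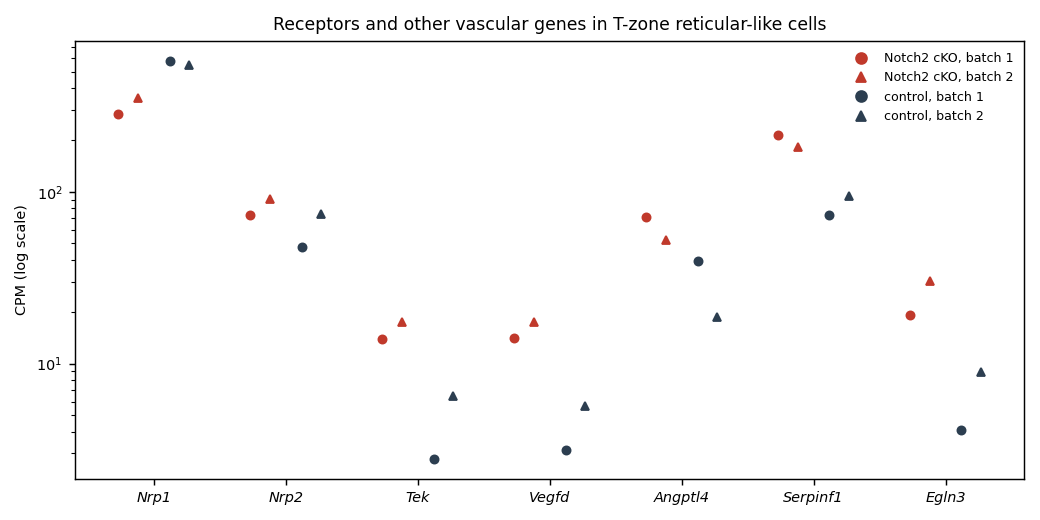
Levels in CPM (vertical axis, log scale) in T-zone reticular-like cells of the 2 most abundant receptors, Nrp1 and Nrp2, and of the 5 listed genes that passed the test there, by library; red marks are Notch2 cKO, dark marks control, circles batch 1 and triangles batch 2. Tek, Vegfd, Angptl4, Serpinf1 and Egln3 lie higher in both Notch2 cKO libraries than in both controls, and Nrp1 lies lower.

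Among 15 other vascular growth factors, 13 were tested in T-zone reticular-like cells, of which 2 were higher and 0 lower, beside 5.67% of all genes called (median 0.27). Vegfd, a further ligand of Flt4, was at 14.1 and 17.5 CPM in Notch2 cKO and at 3.14 and 5.67 CPM in control (1.78 ± 0.26, adjusted p = 0.00101). Angptl4, a secreted inhibitor of lipoprotein lipase, was at 71.1 and 52.6 CPM in Notch2 cKO and at 39.5 and 18.8 CPM in control (1.11 ± 0.20, adjusted p = 0.00508). Elsewhere, Angpt4, a further ligand of Tek, rose in Inmt stromal-like cells (2.26 ± 0.50, adjusted p = 0.0498), and Hgf, the hepatocyte growth factor, fell in fibroblast-like cells outside the gates (-0.76 ± 0.18, adjusted p = 0.027). DESeq2 called 0 of the 6 genes of this list to which it gave an adjusted p in Inmt stromal-like cells, and 0 of 12 outside the gates. Of 12 angiogenesis inhibitors, 8 were tested in T-zone reticular-like cells and 1 was higher, beside the same 5.67%, namely Serpinf1 (pigment epithelium-derived factor), at 212 and 183 CPM in Notch2 cKO and 73.6 and 94.3 CPM in control (1.18 ± 0.24, adjusted p = 0.0113).

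Genes induced by low oxygen, which as background include Vegfa, were listed for comparison. Of 18 hypoxia response genes found, 17 were tested in T-zone reticular-like cells, with 1 higher and 0 lower and a median difference of 0.30. That share is near the 5.67% of all genes called there. The 1 was Egln3, a prolyl hydroxylase that senses oxygen, at 19.3 and 30.2 CPM in Notch2 cKO and 4.09 and 8.92 CPM in control (1.89 ± 0.24, adjusted p = 0.000395). Egln3 also rose in all fibroblast-like cells (2.09 ± 0.23, adjusted p = 0.012), in interferon-high reticular-like cells, where DESeq2 called 0 of 16 genes of the list, and in cells outside the gates. The summed level of the 18 genes in all fibroblast-like cells was 1145 and 1179 CPM in Notch2 cKO, against 931 and 946 CPM in control. Its part in the differences of the growth factors was not tested.

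The immediate early and dissociation list of 12 genes, which tissue digestion can induce, summed to 35252 and 22779 CPM in Notch2 cKO and to 26759 and 25871 CPM in control in all fibroblast-like cells, overlapping between the groups. Of its 12 genes, 0 were called there by edgeR (1 at an unadjusted p under 0.05) and 0 by DESeq2. Of all genes, 1.61% were called there by edgeR, so 0 of 12 does not set the list apart. Hspa1b, a heat shock protein, fell by edgeR in marginal reticular-like (-1.45 ± 0.28), Inmt stromal-like (-1.36 ± 0.27) and ungated fibroblast-like cells (-0.85 ± 0.21), and Hspa1a in marginal reticular-like cells (-1.14 ± 0.29). Of all genes, edgeR called 1.39% in marginal reticular-like, 0.459% in Inmt stromal-like and 4.18% in ungated fibroblast-like cells. DESeq2 called 0 genes of the list in marginal reticular-like and Inmt stromal-like cells and 1 in ungated fibroblast-like cells. Of the 8 regulators of VEGF in stroma (Hif1a, Epas1, Ltbr and others) all 8 were tested in each comparison of the groups. In T-zone reticular-like cells 0 were called by edgeR (0 at an unadjusted p under 0.05) and 0 by DESeq2, with a median difference of 0.09. Of all genes, 5.67% were called there by edgeR, so 0 of 8 does not set these regulators apart.

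Over 36 sums of a library and a cell type, 11 types in all, the genes most like each member were ranked by Pearson's r of log2 CPM among 6731 genes. Vegfa was most like Cxcl12 (r = 0.945), the chemokine of reticular cells, then Kctd12. Apln was also most like Cxcl12 (r = 0.810), then Spon1 and Fzd10. Angpt2 was most like Sept4 (0.903), Rasl11a and Ano1, Angpt1 most like Pde3a (0.885), Cyp4b1 and Nhsl2, Vegfc most like Cp (0.921), Bace2 and Nudt4, and Pgf most like Slamf8 (0.857), Cyp26b1 and Msc. Vegfb had Pih1d1, Nr2f6 and Mmp23 (0.942 to 0.946). The rankings include the sums of pericyte-like (20 cells) and leukocyte-like cells (28 cells) of Notch2 cKO 1, which held 0 UMIs of Vegfb, Pgf and Apln. Pgf was at 0 also in Schwann-like cells of batch 2. Apln was at 0 also in follicular dendritic-like and leukocyte-like cells of Notch2 cKO 2 and Schwann-like cells of control 2. These 0 counts enter r. Among the members, r was 0.726 for Vegfa with Apln, 0.717 for Vegfa with Vegfc and 0.553 for Angpt1 with Angpt2. The sums share libraries, depth and batch, so these are descriptions.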

How the data were processed

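UMI counts per gene and cell barcode of 4 lymph node libraries were used as the authors deposited them, made with Cell Ranger per the file headers (5.0.1 in batch 1, 7.1.0 in batch 2; the submitters' processing notes name 5.0.1 and mm10). No source used here gives the setting for introns. Cells with at least 500 genes, at least 1000 UMIs and at most 10% mitochondrial UMIs were kept, typed by marker sums per 10000 UMIs, and left out where 2 lineages met (0.232% to 2.3% of cells). No doublet caller was run. Gate thresholds were set after the marker distributions had been seen. The members and the gene lists were chosen with earlier results of these data known.

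Counts were summed per library and cell type (at least 20 cells in each library) and tested with edgeR 4.0.16 (R 4.3.3; TMM, filterByExpr, quasi-likelihood test, Benjamini-Hochberg adjustment over all genes tested, threshold 0.05). The replicate number is the batch in the labels and blocked the comparison of the groups. Deviations of libraries sharing a batch correlated at 0.555 to 0.843 across genes. Library blocked comparisons of cell types. With 2 pools of mice a group, p-values rest on a spread between libraries that edgeR estimates in part from all genes together. They do not measure the spread of a gene by itself. Alternatives were DESeq2 1.42.0, library-size scaling, no filter on low counts and a stricter cell filter (1000 genes, 2000 UMIs, 5% mitochondrial). Further alternatives were stricter gates (subset and mural thresholds times 2), a T-zone gate without Ccl19 and leaving out cells of high UMI totals or 1 library. With stricter gates, fibroblast-like cells outside the subset gates rose from 3003 to 5641 in Notch2 cKO 1, so the comparison group changed too. On simulated counts for the T-zone comparison of the groups, 94% of 100 genes changed by 1 and 100% of those changed by 2 (log2) were recovered among 15323. For the interaction in T-zone reticular-like cells, 51% of 100 genes changed by 1 and 100% of those changed by 2 were recovered among 16210. The simulated libraries differed in depth but not by batch, and every gene had the same spread. Only genes of at least 20 CPM were changed. In T-zone reticular-like cells Apln averaged 6.46 CPM and Angpt2 18.5 CPM, so the shares recovered do not hold for them. Beside the 7 members and Notch2, genes are named where they passed from a list (at most 5 a comparison), as the 2 most abundant receptors, or as the 3 most alike by correlation, of which 1 is not reported here. Intervals are exact binomial (Clopper-Pearson) and, as floors of 3 counts, cover counting error only. Coordinates are mm10 (GENCODE M21), and start-site windows are RefSeq, GRCm38.p6.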

Additional observations from a re-analysis of the deposited data

How the results depend on the processing

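Called differences of Apln, Pgf and Angpt2 between the groups kept their sign under every alternative run. Without the replicate block, which pairs the libraries of a batch, edgeR called 0 members in each of the 6 comparisons of the groups that had any, 0 genes in all fibroblast-like cells (434 at an unadjusted p under 0.05) and 0 in T-zone reticular-like cells (669), against 285 and 883 genes with it; T-zone Angpt1 was then -0.026. Cell type comparisons without the block gave 0 members for T-zone, marginal, Inmt and interferon-high cells, 4 for pericyte-like against fibroblast-like cells and 0 against smooth muscle-like cells, which DESeq2 and stricter gates also put at 0. In all fibroblast-like cells, genes called were 480 with DESeq2, 107 without TMM, 839 without the filter on low counts, 102 with the stricter cell filter and 109 without the highest UMI totals, and members called were 1 rather than 3 without TMM, with the stricter cell filter and without the highest UMI totals; Angpt1 was 0.022 without TMM, and T-zone Vegfa 0.053 with stricter gates. Members called between the groups were otherwise 0 with DESeq2 in marginal and interferon-high cells (in marginal cells it gave Apln no adjusted p), 2 in marginal cells without the highest UMI totals, 2 in Inmt cells without the filter, with stricter gates or without the highest UMI totals, 1 in interferon-high cells with the stricter cell filter, and 1 in ungated cells without TMM or without the highest UMI totals. Interactions gave 1 member in T-zone cells without the filter or with the gate without Ccl19, 2 with stricter gates, and 1 in Inmt cells with stricter gates. Interferon-high cells against the rest gave 2 without the highest UMI totals.

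With 1 library left out, the batch block could not be fitted between the groups, the lone library was taken to vary like the others, and 0 to 8 genes (all fibroblast-like cells) and 0 genes (T-zone) were called, with 0 members. Ranges were then -1.07 to 1.23 (Angpt1), -0.92 to 0.17 (Vegfa), -0.10 to 0.48 (Vegfb) and -0.39 to 0.62 (Vegfc) in all fibroblast-like cells, and -0.70 to 1.21, -0.71 to 0.40, -0.055 to 0.37 and -0.17 to 1.03 in T-zone cells. Members called were 1 to 3 for interferon-high cells against the rest, and for interactions 0 to 2 in interferon-high and 0 to 1 in T-zone cells. Comparisons of batch 2 alone were not run with a library left out. Without TMM the median of all genes shifted by 0.12 in marginal, 0.12 in Inmt and 0.13 in interferon-high cells, and the calls in all fibroblast-like cells were 80 higher and 27 lower, against 182 and 103 with TMM. Low counts limit Apln in adventitial-like cells (2 to 4 UMIs a library) and every member in batch 1 mural cells.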
